A study of Mus musculus with 16 samples.

Results

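Enterochromaffin (EC) cells of the small intestinal villus were set against the other epithelial cells of the villus, with 4 libraries of each among the 16 libraries of the series. The members were chosen by sample title alone: 4 villus EC libraries, sorted as positive for cyan fluorescent protein (CFP), and 4 villus epi libraries, sorted as CFP-negative cells of the same villus fraction. All mice were untreated, carried the Tph1-CFP genotype and were 8 to 16 weeks old, and each library pooled 5000 cells from the whole small intestine. The reporter follows Tph1, so the difference in Tph1 was set by the sort and is no finding, and villus epi is a mixture of every CFP-negative cell of the fraction. The other 8 libraries, 4 crypt EC and 4 crypt epi, enter only where site is compared. The labels give 4 mice or samples per group without saying which libraries came from separate animals, so p-values measure the spread between these libraries.

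EC cells are endocrine cells scattered singly in the gut lining. They make serotonin from tryptophan through tryptophan hydroxylase 1 (Tph1), pack it with chromogranins and peptides into dense-core granules and release it by calcium-triggered exocytosis onto nerve endings and neighbouring cells. Most other villus cells are enterocytes, which digest and absorb lipid, sugar and peptides across the brush border, with goblet cells, tuft cells and other endocrine cells among them.

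The values are gene-level FPKM as deposited, a measure per length of transcript, and 12892 of 20072 genes had a value of 1 or more in at least 4 of the 8 villus libraries and were tested on log2(FPKM + 1) with limma. At a Benjamini-Hochberg adjusted p under 0.05, 4613 genes (35.8%) were higher and 2391 (18.5%) lower in villus EC, 3708 and 1898 of them by 2-fold or more. The 4 libraries of villus EC all lay above the 4 of villus epi in 4739 genes (36.8%) and all below in 2431 (18.9%). The median log2 fold change over all genes tested was 0.38. Library totals were 805073 to 901567 in villus EC and 1190720 to 1415120 in villus epi, and read depth is unknown. Median-ratio scaling would lower the log2 difference of a well expressed gene by 0.26 and scaling to equal totals would raise it by 0.64, with smaller shifts for genes near the pseudocount. With equal totals 6803 genes were higher and 1536 lower, and with median-ratio scaling 3726 and 2851. Villus epi replicate 2 correlated at a mean of 0.800 with its own group across genes, against 0.918 to 0.922 for the other villus epi libraries and 0.979 to 0.982 for villus EC. The means of the other villus epi libraries include their correlation with replicate 2, which lowers them. Without villus epi replicate 2, 6433 of 13235 genes (48.6%) were higher and 3622 (27.4%) lower.

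**Figure D1:**
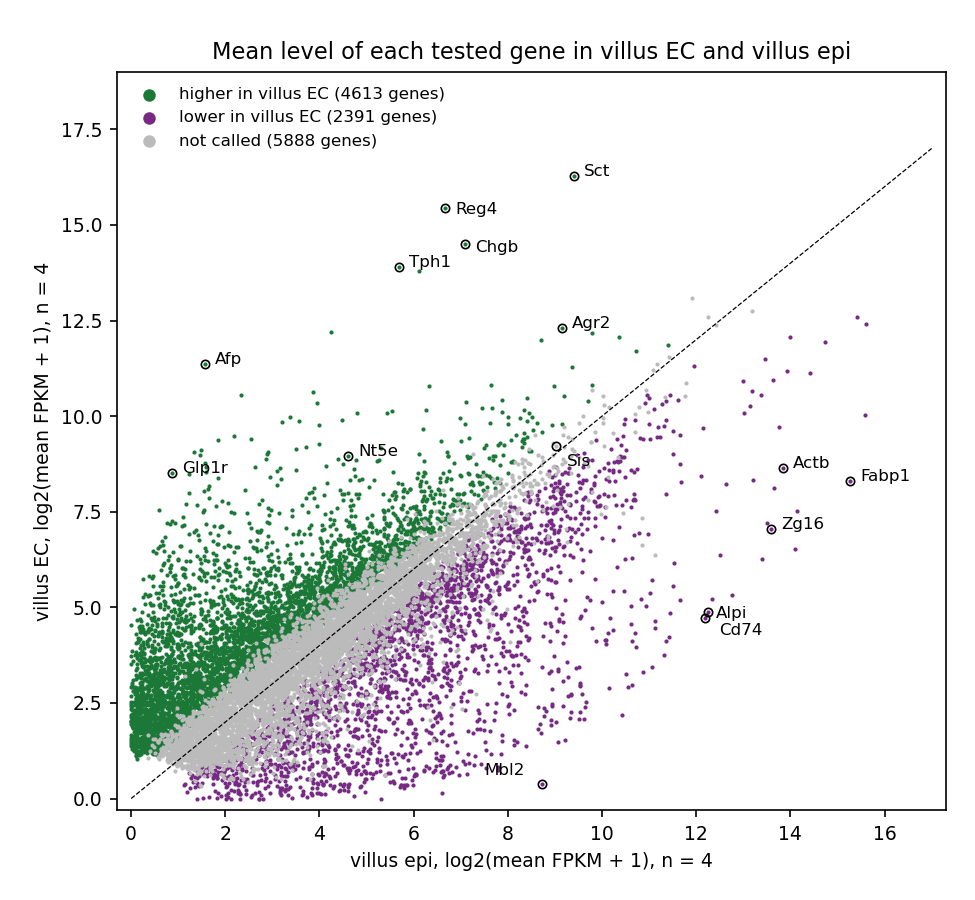
Mean level of each tested gene, with villus EC on the vertical and villus epi on the horizontal axis, both as log2(mean FPKM + 1) over 4 libraries; green points are the 4613 genes higher in villus EC, purple points the 2391 lower, grey points the rest, and the dashed line marks equal means. Sct, Reg4, Chgb and Tph1 reach the highest villus EC levels of the genes named, Fabp1, Zg16, Alpi and Mbl2 lie far below it, and Sis lies near it.

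Tph1 lies on mouse chromosome 7 at 46644641-46672537, minus strand, in the GENCODE annotation of mm10. The labels held against the marker genes. Tph1 was at 13600, 15288, 15064 and 17178 in the 4 villus EC libraries and at 44.9, 87.2, 22.8 and 46.4 in villus epi. Reg4, a secreted lectin that marks EC cells, was at 34528, 39635, 40794 and 64437 in villus EC and at 81.0, 89.6, 127 and 102 in villus epi. For both genes every villus EC library lay above every villus epi library. The enterocyte marker Alpi, the brush border alkaline phosphatase, was at 5.57, 57.1, 32.4 and 7.26 in villus EC and at 3783, 7739, 3620 and 3599 in villus epi (log2 fold change -7.94 ± 0.69 (SE), adjusted p = 1.95e-05).

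Around Tph1, 4 of 5 genes for its cofactor rose, and the 3 genes that take up or break down serotonin (Slc6a4, Maoa and Maob) fell. Of the 12 tested genes for serotonin synthesis, storage and clearance, 7 were higher and 3 lower, and the 7 include Tph1, whose difference the sort set. Over all genes tested, 35.8% were higher and 18.5% lower. Gch1, the first enzyme of tetrahydrobiopterin synthesis, was at 140, 142, 136 and 143 in villus EC and at 15.6, 3.93, 15.4 and 17.7 in villus epi (3.48 ± 0.40 (SE), adjusted p = 0.000106). Qdpr, which regenerates the cofactor after each round, averaged 1135 ± 198 in villus EC and 76.2 ± 22.0 in villus epi (SD, n = 4 each, log2 fold change 3.91, adjusted p = 3.89e-06). Pts, the enzyme after Gch1, rose by 1.27 and Pcbd1, which acts in recycling, by 2.43, while the sepiapterin reductase gene Spr was not called (-0.61, adjusted p = 0.402). Without villus epi replicate 2, Spr was called lower in villus EC (-1.26, adjusted p = 8.5e-06). Slc18a1, which loads serotonin into granules, averaged 1092 ± 93.9 in villus EC and 42.4 ± 11.5 in villus epi (SD, n = 4 each, 4.69, adjusted p = 6.03e-07). On the clearing side Slc6a4, the serotonin uptake carrier, was at 2.29, 6.97, 5.51 and 3.85 in villus EC and at 254, 92.5, 277 and 227 in villus epi (-5.20 ± 0.41 (SE), adjusted p = 1.04e-05). Maob, the second monoamine oxidase gene, averaged 49.5 ± 3.71 in villus EC and 381 ± 190 in villus epi (-2.73, adjusted p = 0.000515). The other vesicular transporter gene, Slc18a2, was low in both groups and was not called (log2 fold change 0.40, adjusted p = 0.622), but it was called higher without villus epi replicate 2 (1.09, adjusted p = 0.00307), where that library held 21.1 and the other villus epi libraries 1.67 to 2.77.

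Genes of the granule and its release rose almost as a block. For granule cargo and prohormone processing, 14 of 15 tested were higher and 0 lower, and the median log2 fold change was 5.94. Pcsk1, a prohormone convertase, was at 474, 548, 576 and 526 in villus EC and at 8.21, 1.63, 7.26 and 9.02 in villus epi (6.31 ± 0.40 (SE), adjusted p = 3.47e-06). The secretogranin gene Scg2 was the member not called: it ran from 30.1 to 122 in villus EC and from 20.2 to 44.4 in villus epi, and these ranges overlapped (1.02, adjusted p = 0.0895). Without villus epi replicate 2, Scg2 was called higher (1.15, adjusted p = 0.0427), and so were all 15 genes. It was also called with equal totals (adjusted p = 0.0123), with array weights, in 1 fit of 16 libraries and without villus EC replicate 4. Exocytosis genes followed, 23 of 26 being higher and 0 lower (median 3.38). Snap25, the membrane partner of the release machinery, was at 727, 714, 735 and 698 in villus EC and at 6.20, 1.91, 1.95 and 4.20 in villus epi (7.41 ± 0.30 (SE), adjusted p = 5.02e-07). Unc13a, which primes vesicles for fusion, averaged 33.7 ± 3.25 in villus EC and 0.323 ± 0.269 in villus epi (SD, n = 4 each, 4.73, adjusted p = 7.54e-07).

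Several of these genes carry, at their starts, parts of the site of REST, a repressor that keeps neuronal genes silent in other tissues. The RefSeq promoters (GRCm38.p6, 250 bases before to 50 after each start) were searched on both strands for TTCAGCACC, the left arm of this RE1 site, and GGACAGCGC, the right arm. Of 1196 genes called higher by 4-fold or more that have a promoter in the table, 11 (0.92%) held the left and 8 (0.669%) the right arm. Of 768 called lower by 4-fold or more, 2 (0.26%) held each. Over all 27025 genes with a promoter the shares were 0.433% for the left and 0.477% for the right arm, and over the 9637 tested genes with a promoter 0.488% and 0.716%, so the right arm was no more frequent among the higher genes than among those tested. The promoters of Unc13a and of Ptprn2, a granule membrane protein, held both arms, 8 bases apart in Unc13a and with 0 bases between them in Ptprn2. They are shown 5′ to 3′ on the gene's strand with the matches in capitals, from chr8:71671708-71671792 on the minus strand and chr12:116485684-116485769 on the plus strand, and a match is a description of letters, not of binding.
Unc13a: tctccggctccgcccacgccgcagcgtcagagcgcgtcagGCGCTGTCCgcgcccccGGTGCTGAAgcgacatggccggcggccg
Ptprn2: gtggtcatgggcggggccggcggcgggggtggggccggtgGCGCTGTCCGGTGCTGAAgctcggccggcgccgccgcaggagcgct

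The same search used GTTGCCATG, the core of a site of the RFX factors that act in endocrine cells, and 11 of the 1196 higher genes (0.92%), 2 of the 768 lower genes (0.26%) 0.602% of the promoters of tested genes and 0.877% of all promoters held it. Celf3, an RNA-binding protein of neurons, and Pcsk1n, the granule inhibitor of Pcsk1, are 2 of the 11. Celf3 averaged 372 ± 17 in villus EC and 1.99 ± 2.02 in villus epi (SD, n = 4 each, log2 fold change 7.19, adjusted p = 2.21e-06), and Pcsk1n 38.7 ± 1.87 in villus EC and 0.597 ± 0.292 in villus epi (4.66, adjusted p = 6.62e-07). The stretches are chr3:94484235-94484323 and chrX:7919621-7919709, both on the plus strand, with the match in capitals.
Celf3: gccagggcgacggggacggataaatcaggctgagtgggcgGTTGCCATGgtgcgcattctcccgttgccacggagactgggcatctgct
Pcsk1n: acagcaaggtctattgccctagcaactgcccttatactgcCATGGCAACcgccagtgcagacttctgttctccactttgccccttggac

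Of 11 tested gut peptide hormone genes, 5 were higher and 1 lower, not far from the shares of 35.8% and 18.5% over all genes tested, and single genes are described. Sct, which encodes secretin, was the most abundant transcript of 3 villus EC libraries, at 71244, 93160, 103341 and 50729 in villus EC and at 951, 419, 688 and 637 in villus epi. Tac1, the precursor gene of substance P, averaged 1310 ± 154 in villus EC and 14.4 ± 2.34 in villus epi (SD, n = 4 each, log2 fold change 6.42), and Ucn3, which encodes urocortin 3, 286 ± 24 in villus EC and 2.15 ± 0.467 in villus epi (6.52, adjusted p = 1.32e-07 for both). Gast, which encodes gastrin, was low but rose, at 4.64 to 7.38 in villus EC and 0 to 1.09 in villus epi (2.61, adjusted p = 8.02e-05). Gip, the incretin gene of K cells, fell to 75.8, 65.3, 73.8 and 24.9 in villus EC against 1321, 778, 725 and 211 in villus epi (-3.49 ± 0.58 (SE), adjusted p = 0.000909). Cck, the cholecystokinin gene of I cells, was at 168, 927, 1660 and 169 in villus EC and at 817, 45.0, 295 and 363 in villus epi (0.86 ± 1.03 (SE), adjusted p = 0.509). Nts, which encodes neurotensin, ran from 5.72 to 291 in villus EC and from 32.3 to 315 in villus epi. In villus EC, replicates 2 and 3 had the highest values of both Cck and Nts, and in a bulk library fewer cells of a type and less RNA per cell cannot be told apart.

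Receptors, channels and second-messenger genes formed the next group that rose. All 4 tested somatostatin receptor genes were higher (median 4.73), with Sstr1 at 274 ± 23.6 in villus EC and 2.10 ± 1.33 in villus epi (SD, n = 4 each, 6.61, adjusted p = 1.84e-06). Glp1r, the receptor of glucagon-like peptide 1, was at 391, 338, 362 and 376 in villus EC and at 0.738, 0.282, 0.0803 and 2.15 in villus epi (7.79 ± 0.32 (SE), adjusted p = 5.43e-07). Ffar2, a receptor for short-chain fatty acids, averaged 409 ± 32.8 in villus EC and 5.20 ± 3.09 in villus epi (SD, n = 4 each, 6.19), and Galr1, a galanin receptor, 70.2 ± 9.45 in villus EC and 0.611 ± 0.515 in villus epi (5.52). Gpr35 was the 1 nutrient or transmitter receptor gene that fell, with 2.55 ± 0.461 in villus EC and 10.2 ± 1.87 in villus epi (-1.65, adjusted p = 0.000178). Of 16 tested sensory, sodium and calcium channel genes 11 were higher and 0 lower (median 3.48), and of 12 potassium and pacemaker channel genes 9 were higher and 0 lower (median 2.23). Trpm2, a cation channel gated by oxidative signals, was at 356, 374, 343 and 357 in villus EC and at 0.738, 0.973, 1.25 and 2.35 in villus epi (7.31 ± 0.22 (SE), adjusted p = 1.7e-07). Trpa1, the irritant sensor of EC cells, ran from 138 to 193 in villus EC and from 0.321 to 1.16 in villus epi (6.40, adjusted p = 2.62e-07), whereas the mechanosensitive channel gene Piezo2 stayed under 1 in all 8 libraries and was not tested. These sensor genes were nearly silent in villus epi or low in both groups. The calcium channel gene Cacna1a, a presynaptic pore subunit, was at 59.1, 48.0, 43.6 and 35.4 in villus EC and at 1.63, 0.588, 1.62 and 1.43 in villus epi (4.36, adjusted p = 2.12e-06). The potassium channel gene Kcnh6 was at 217, 206, 196 and 192 in villus EC and at 2.35, 1.56, 1.01 and 1.63 in villus epi (6.29, adjusted p = 1.7e-07).

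Of 24 tested genes of G protein, RGS and cyclic AMP signalling 16 were higher and 1, the beta subunit gene Gnb1, lower (median 1.87), though Gnb1 was at 1088 in villus epi replicate 2 and its call was lost with equal totals (adjusted p = 0.0896) and without villus EC replicate 2, 3 or 4 (0.0502 to 0.0648). Of 9 neuronal adhesion and guidance genes 7 were higher and 0 lower (median 2.53). Amigo2, a neuronal adhesion gene, averaged 533 ± 82.4 in villus EC and 1.52 ± 0.271 in villus epi (SD, n = 4 each, 7.72, adjusted p = 1.32e-07).

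Among transcription factors, the endocrine set rose and most enterocyte regulators fell. Of 18 tested endocrine factors 15 were higher and 0 lower (median 3.64), among them Lmx1a, which drives Tph1 expression in EC cells, at 437 ± 19.8 in villus EC and 1.96 ± 0.725 in villus epi (SD, n = 4 each, 7.24, adjusted p = 1.63e-07), and Pax4, a factor of endocrine differentiation (5.96, adjusted p = 9.68e-06). Fev, a serotonergic factor that also marks immature endocrine cells, was at 73.0, 46.0, 28.0 and 14.0 in villus EC and at 0.0385, 0, 0.533 and 1.44 in villus epi (4.64, adjusted p = 8.25e-05). Of 24 tested enterocyte factors and nuclear receptors, 1 was higher and 14 lower (median -1.57). Creb3l3, a liver and gut factor of lipid genes, was between 6.31 and 15 in villus EC and at 740, 514, 782 and 767 in villus epi (-6.09 ± 0.27 (SE), adjusted p = 6.56e-07). The vitamin D receptor gene Vdr averaged 42.1 ± 1.66 in villus EC and 399 ± 26.8 in villus epi (-3.21, adjusted p = 3.96e-07).

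The paralogs Hnf4a and Hnf4g, nuclear receptors that together maintain enterocyte genes, moved in opposite directions. Hnf4g was at 20.2, 21.1, 21.3 and 17.2 in villus EC and at 337, 152, 295 and 283 in villus epi (-3.62 ± 0.25 (SE), adjusted p = 5.38e-06). Hnf4a was at 308, 318, 314 and 326 in villus EC and at 142, 19.2, 124 and 122 in villus epi (1.96 ± 0.58 (SE), adjusted p = 0.0189), and its difference was 1.29 without villus epi replicate 2 (adjusted p = 5.35e-07) and missed the threshold with median-ratio scaling. In the mm10 annotation they lie on chromosomes 2 (163506808-163572910, Hnf4a) and 3 (3508030-3658052, Hnf4g), both on the plus strand. No library of one group fell in the range of the other for either gene.

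Lists of digestion and absorption genes were largely lower in villus EC. The lists for lipid absorption (21 of 23 tested lower, 1 higher, median log2 fold change -5.24), carbohydrate handling (12 of 13 lower, 0 higher, -5.95) and brush border peptidases (12 of 13 lower, 0 higher, -5.85) lay far from the median of all genes. Mttp, which loads lipid onto nascent chylomicrons, averaged 15.5 ± 5.58 in villus EC and 1086 ± 465 in villus epi (SD, n = 4 each, -5.94, adjusted p = 7.1e-06). Of the genes for xenobiotic and retinoid metabolism 29 of 31 were lower and 2 higher (median -4.80), and of those for metals and minerals 13 of 18 were lower and 0 higher (-2.47). The iron exporter gene Slc40a1 averaged 4.82 ± 2.11 in villus EC and 139 ± 37.8 in villus epi (-4.62, adjusted p = 5.13e-06). Guca2b, which encodes the enterocyte peptide uroguanylin, was at 39.5, 172, 105 and 46.3 in villus EC and at 11372, 19256, 19878 and 19746 in villus epi (-7.80 ± 0.46 (SE), adjusted p = 2.42e-06). Brush border structure genes moved less (12 of 18 lower, 0 higher, median -1.95), and all 18 were lower without villus epi replicate 2.

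**Figure D2:**
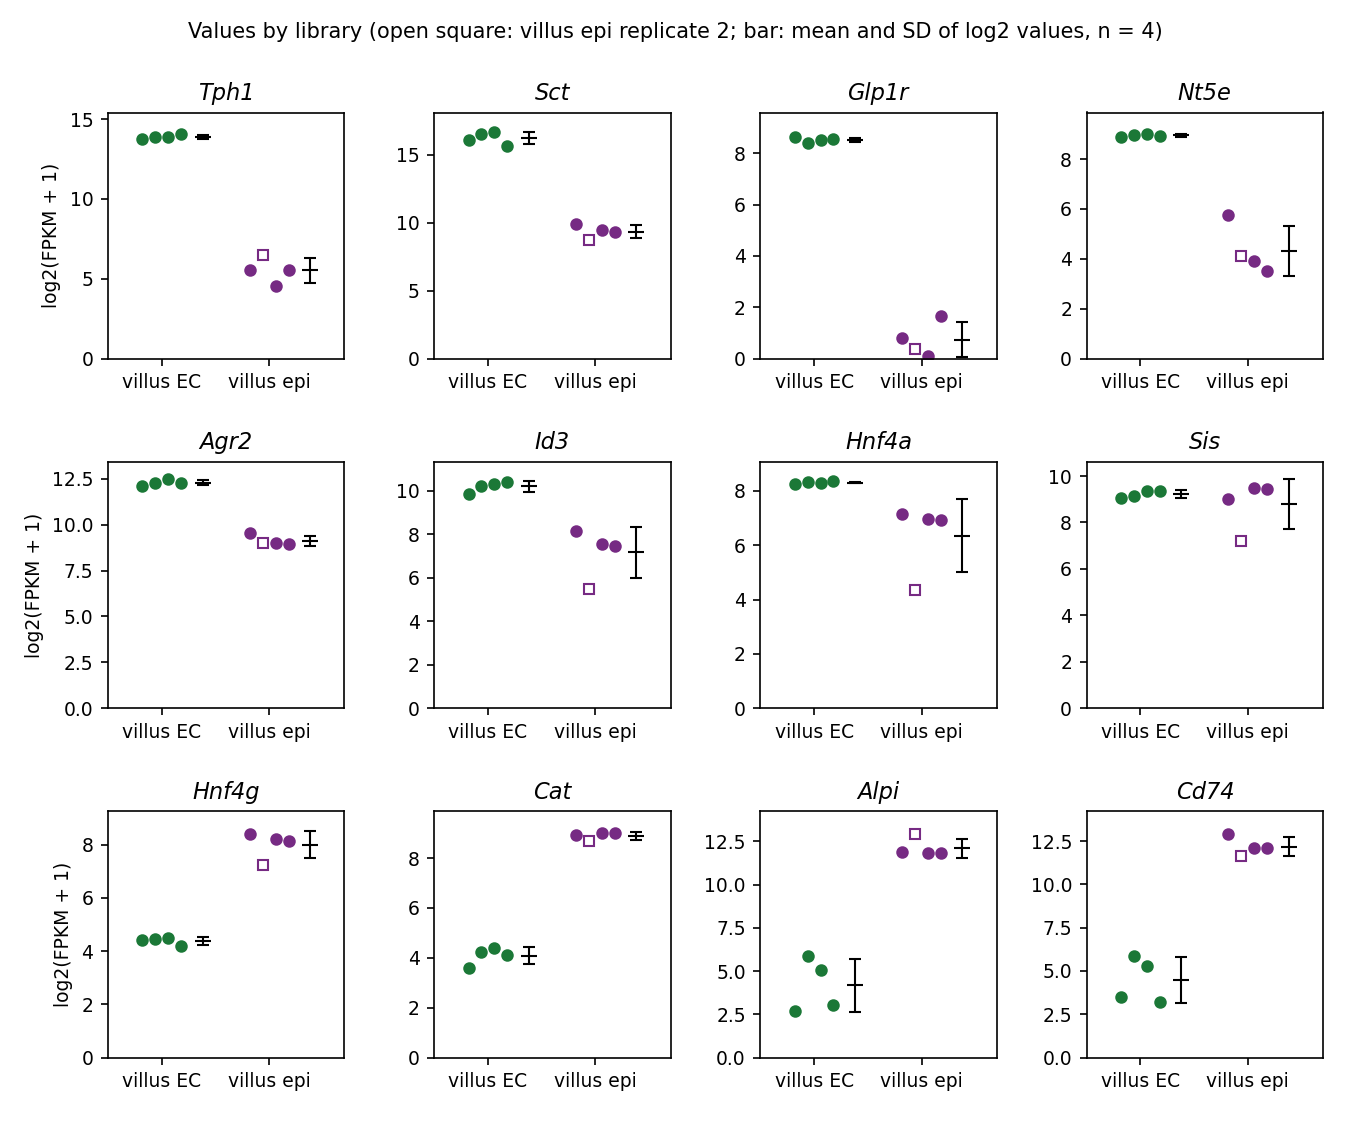
Values of 12 genes in each library as log2(FPKM + 1), with villus EC (green, left) and villus epi (purple, right) in every panel, replicates 1 to 4 from left to right, villus epi replicate 2 as an open square, and bars for the mean and SD of the log2 values (n = 4). Tph1, Sct, Glp1r, Nt5e, Agr2, Id3 and Hnf4a lie higher in every villus EC library, Hnf4g, Cat, Alpi and Cd74 lower, and the values of Sis overlap.

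HNF4 binds a motif that holds CAAAGTCCA, and 14 of the 768 promoters of genes lower by 4-fold or more (1.82%) held these letters on either strand, against 6 of the 1196 higher by 4-fold or more (0.502%), 0.664% of the 9637 tested genes with a promoter and 0.555% of all promoters. The 14 include Alpi, Cyp3a11, a drug-oxidising cytochrome, Treh, the brush border trehalase, and Pdzk1, a scaffold of apical transporters. Cyp3a11 averaged 184 ± 40.4 in villus EC and 5518 ± 2160 in villus epi (-4.85), Treh 2.29 ± 1.97 in villus EC and 417 ± 231 in villus epi (-6.83), and Pdzk1 29.7 ± 4.8 in villus EC and 800 ± 194 in villus epi (-4.68), each with SD and n = 4 per group. Their promoter stretches on GRCm38.p6 are chr1:87101577-87101665 and chr5:145879915-145880003 on the minus strand for Alpi and Cyp3a11, and chr9:44673122-44673210 and chr3:96830039-96830114 on the plus strand for Treh and Pdzk1, with the match in capitals.
Alpi: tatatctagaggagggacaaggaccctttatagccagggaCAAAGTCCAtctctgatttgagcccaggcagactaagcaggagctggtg
Cyp3a11: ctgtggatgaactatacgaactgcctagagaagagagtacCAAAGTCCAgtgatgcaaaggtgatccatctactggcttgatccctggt
Treh: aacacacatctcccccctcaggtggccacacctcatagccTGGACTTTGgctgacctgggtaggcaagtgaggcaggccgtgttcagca
Pdzk1: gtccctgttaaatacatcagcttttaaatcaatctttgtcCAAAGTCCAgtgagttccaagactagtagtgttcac

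A few absorptive genes did not follow their lists. Sis, the sucrase-isomaltase of the brush border, was at 529, 562, 660 and 649 in villus EC and at 511, 146, 724 and 703 in villus epi (0.44 ± 0.47 (SE), adjusted p = 0.468), and without villus epi replicate 2 its difference was -0.10 (adjusted p = 0.548). It was the 1 carbohydrate gene not called, beside lactase (Lct) at 1.77 ± 1.07 in villus EC and 538 ± 291 in villus epi (-7.37, adjusted p = 1.51e-05). Scarb1, a receptor for lipoprotein cholesterol, rose, with 85.3 ± 12 in villus EC and 20.7 ± 11 in villus epi (2.23, adjusted p = 0.00505). In the retinoid group Bco1, which cleaves beta-carotene to retinal, was at 26.5, 25.2, 28.5 and 27.0 in villus EC and at 0.892, 0.259, 6.02 and 3.86 in villus epi (3.21 ± 0.51 (SE), adjusted p = 0.000763), and Adh1, a retinol dehydrogenase, rose by 0.97 (adjusted p = 0.000414). Of 14 tested amino acid transporter genes 4 were higher and 8 lower, beside 35.8% and 18.5% of all genes tested. The 4 were the glutamine and large neutral amino acid carriers Slc1a5 (4.02), Slc7a5 (3.64), Slc38a1 (3.44) and Slc38a2 (1.95), while the apical carriers Slc7a9 (-5.69) and Slc6a19 (-2.50) were among the 8.

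Of 10 tested purine and nucleoside genes, 7 (Ada, Adk, Enpp3, Pnp, Slc28a1, Slc28a2 and Xdh) were lower and 2 higher. Adk lost its call with equal totals (-0.62, adjusted p = 0.123). Nt5e, the surface enzyme that makes adenosine from AMP, was at 476, 494, 519 and 485 in villus EC and at 53.3, 16.1, 14.1 and 10.4 in villus epi (4.63 ± 0.43 (SE), adjusted p = 2.98e-05). Slc29a1, which carries adenosine across the membrane along its gradient, averaged 133 ± 8.80 in villus EC and 4.86 ± 4.44 in villus epi (SD, n = 4 each, 4.77, adjusted p = 2.04e-05). Of the enzymes that break purines down, Ada, the deaminase of adenosine, was at 11.3, 32.8, 37.5 and 10.8 in villus EC and at 682, 479, 255 and 339 in villus epi (-4.30 ± 0.48 (SE), adjusted p = 8.49e-05), and Xdh, which makes uric acid, averaged 6.63 ± 5.29 in villus EC and 739 ± 388 in villus epi (-6.59). Among antioxidant enzymes and selenoproteins 4 of 16 tested were higher and 9 lower, beside 35.8% and 18.5% of all genes tested. Cat, the peroxisomal catalase, was at 11.2, 17.8, 20.0 and 16.3 in villus EC and at 480, 407, 509 and 508 in villus epi (-4.81 ± 0.19 (SE), adjusted p = 5.16e-07).

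Antigen presentation and epithelial defence were lower in villus EC. All 8 tested genes of MHC class II presentation were lower (median -5.65), and so were 13 of 14 of MHC class I and the interferon response (median -2.33), with 0 higher. Cd74, the invariant chain of class II molecules, was at 10.1, 56.7, 38.5 and 8.05 in villus EC and at 7727, 3128, 4414 and 4340 in villus epi (-7.73 ± 0.61 (SE), adjusted p = 1.12e-05). Ciita, the master regulator of class II genes, was at 0.0328 to 0.0908 in villus EC and at 8.04 to 18.7 in villus epi (-3.68, adjusted p = 1.01e-05). B2m, the light chain of class I molecules, averaged 311 ± 58.5 in villus EC and 3263 ± 1136 in villus epi (SD, n = 4 each, -3.31), and the interferon-stimulated gene Isg15 2.50 ± 0.768 in villus EC and 64.2 ± 5.14 in villus epi (-4.24). Of the Reg lectins and other defence genes 9 of 11 were lower and 1 higher. Reg3g, an antibacterial lectin, averaged 45.7 ± 22.1 in villus EC and 2910 ± 783 in villus epi (-6.01), and Lypd8, a secreted protein that binds flagella, was the gene that rose, at 747 ± 93.4 in villus EC and 324 ± 84.4 in villus epi (1.24, adjusted p = 0.00157). Within the Reg3, Cyp3a, Clca and H2 families, near-identical members can share reads.

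Goblet cell genes did not move as one. Of 15 tested, 4 were higher and 6 lower, where 35.8% of all genes tested were higher and 18.5% lower. The 6 that fell were Clca1, Fcgbp, Muc2, Spink4, Sytl2 and Zg16, and 3 of the secreted products among them are described. The mucin gene Muc2 was at 0, 0.648, 0.267 and 0.207 in villus EC and at 74.4, 5.11, 69.9 and 59.1 in villus epi (-4.89 ± 0.77 (SE), adjusted p = 0.000663), and the log2 fold changes of Zg16 and Clca1 were -7.20 and -7.49. The 4 that rose act inside the secretory pathway. Agr2, a disulfide isomerase of the endoplasmic reticulum (ER), was at 4491, 4928, 5718 and 5021 in villus EC and at 749, 504, 520 and 487 in villus epi (3.17 ± 0.18 (SE), adjusted p = 1.8e-06). Ern2, an ER stress sensor of gut epithelium, averaged 64.8 ± 9.81 in villus EC and 10.7 ± 4.33 in villus epi (SD, n = 4 each, 2.56), Creb3l1 rose by 2.74 and the glycosyltransferase gene Galnt12 by 1.51. Of 17 tested genes of the unfolded protein response and ER folding, 11 were higher and 0 lower (median 1.11). Tff3, a trefoil peptide, was at 6905 ± 1124 in villus EC and 9260 ± 3638 in villus epi and was not called (-0.33, adjusted p = 0.419). Without villus epi replicate 2, Tff3 was called lower (-0.65, adjusted p = 0.00734), and of 16 goblet genes then tested 4 were higher and 9 lower. Of 10 tested Paneth cell markers 1 was higher and 7 lower (median -3.05). The one that rose was Clps, a lipase cofactor, at 772, 993, 1083 and 743 in villus EC and at 284, 146, 182 and 171 in villus epi (2.22 ± 0.23 (SE), adjusted p = 5.84e-05), while lysozyme 1 (Lyz1) was at 53.5 ± 23.2 in villus EC and 55.4 ± 11.6 in villus epi. Of 7 tested tuft cell markers 1 was higher and 3 lower (median -0.66), a small list to set against the 35.8% and 18.5% of all genes tested.

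Of 10 tested liver-type secreted proteins 5 were higher and 2 lower, near the shares of 35.8% and 18.5% over all genes tested, and single members moved far. Afp, the fetal serum protein, was at 1802, 2148, 2437 and 4120 in villus EC and at 1.82, 2.05, 2.06 and 1.85 in villus epi, while its relative albumin (Alb) stayed low at 6.29 ± 1.41 in villus EC and 0.189 ± 0.0334 in villus epi (SD, n = 4 each, 2.60, adjusted p = 6.07e-06). Ambp, a plasma protease inhibitor precursor, averaged 1503 ± 162 in villus EC and 4.01 ± 3.02 in villus epi (8.48, adjusted p = 1.72e-06). The secreted peroxidase gene Gpx3 averaged 4696 ± 315 in villus EC and 18.1 ± 12.5 in villus epi (8.35). Mbl2, a lectin gene, went the other way, at 0.308 ± 0.218 in villus EC and 425 ± 178 in villus epi.

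For growth signalling the counts lay near the 35.8% higher and 18.5% lower of all genes tested or below them, and single genes are described. Cholesterol synthesis, with a larger share higher, and junctions, with a larger share lower, are given beside them. Of 13 BMP pathway genes 6 were higher and 1 lower. The BMP target Id3 was at 930, 1187, 1289 and 1341 in villus EC and at 287, 43.9, 189 and 176 in villus epi (3.03 ± 0.51 (SE), adjusted p = 0.00105), Id2 and Id1 rose by 3.01 and 2.00, and the ligand gene Bmp4 fell to 0.677 ± 0.176 in villus EC against 9.88 ± 2.27 in villus epi (-2.68, adjusted p = 1.08e-05). Of 12 receptor tyrosine kinase genes 5 were higher and 1 lower, led by Fgfr2, at 95.1 ± 6.45 in villus EC and 5.01 ± 3.70 in villus epi (4.31, adjusted p = 0.000176). Wnt3, a ligand that sustains stem cells in the crypt, was at 57.1, 52.9, 57.2 and 54.3 in villus EC and at 0.695, 0.0622, 0.735 and 0.0180 in villus epi (5.40 ± 0.24 (SE), adjusted p = 6.79e-07). Of 24 cholesterol synthesis genes 14 were higher and 3 lower (median 1.05), with Sqle, the squalene epoxidase, at 140 ± 22.7 in villus EC and 17.7 ± 12.7 in villus epi (3.11, adjusted p = 0.000181). Of 9 Notch pathway genes 4 were higher and 2 lower (median 0.65), of 8 Wnt pathway genes 2 were higher and 0 lower, of 7 stem and progenitor markers 3 were higher and 1 lower, and of 16 cell cycle genes 3 were higher and 2 lower. Prom1, a membrane protein of progenitors, averaged 119 ± 12.6 in villus EC and 9.85 ± 4.10 in villus epi (3.54, adjusted p = 1.06e-05). Of 20 proton pump and lysosome genes 9 were higher and 5 lower (median 0.88). In the junction list 4 of 22 were higher and 7 lower (median -0.22, but 0.42 with equal totals), and the claudin genes parted, with Cldn4, a sealing claudin, at 393, 472, 495 and 461 in villus EC and 82.7, 3.79, 32.5 and 27.3 in villus epi (4.19 ± 0.74 (SE), adjusted p = 0.00132) and Cldn15, a cation-pore claudin, at 7.40 ± 4.33 in villus EC and 578 ± 259 in villus epi (-6.09).

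Heat shock and immediate early genes, both known to be induced by cell handling, moved with the groups. All 9 heat shock genes tested were higher (median 2.67), and of 17 immediate early genes 11 were higher and 1 lower (median 1.95). The chaperone gene Hsp90aa1 averaged 249 ± 32.8 in villus EC and 39.7 ± 12.5 in villus epi (SD, n = 4 each, 2.67, adjusted p = 2.35e-05), and Fos, the immediate early gene with the widest use as an activity marker, 867 ± 161 in villus EC and 486 ± 139 in villus epi (0.87, adjusted p = 0.0224). The call of Fos was lost with median-ratio scaling (0.60, adjusted p = 0.167) and without villus EC replicate 2, 3 or 4 (adjusted p between 0.0579 and 0.0653). Their part in the other differences was not tested.

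**Figure D3:**
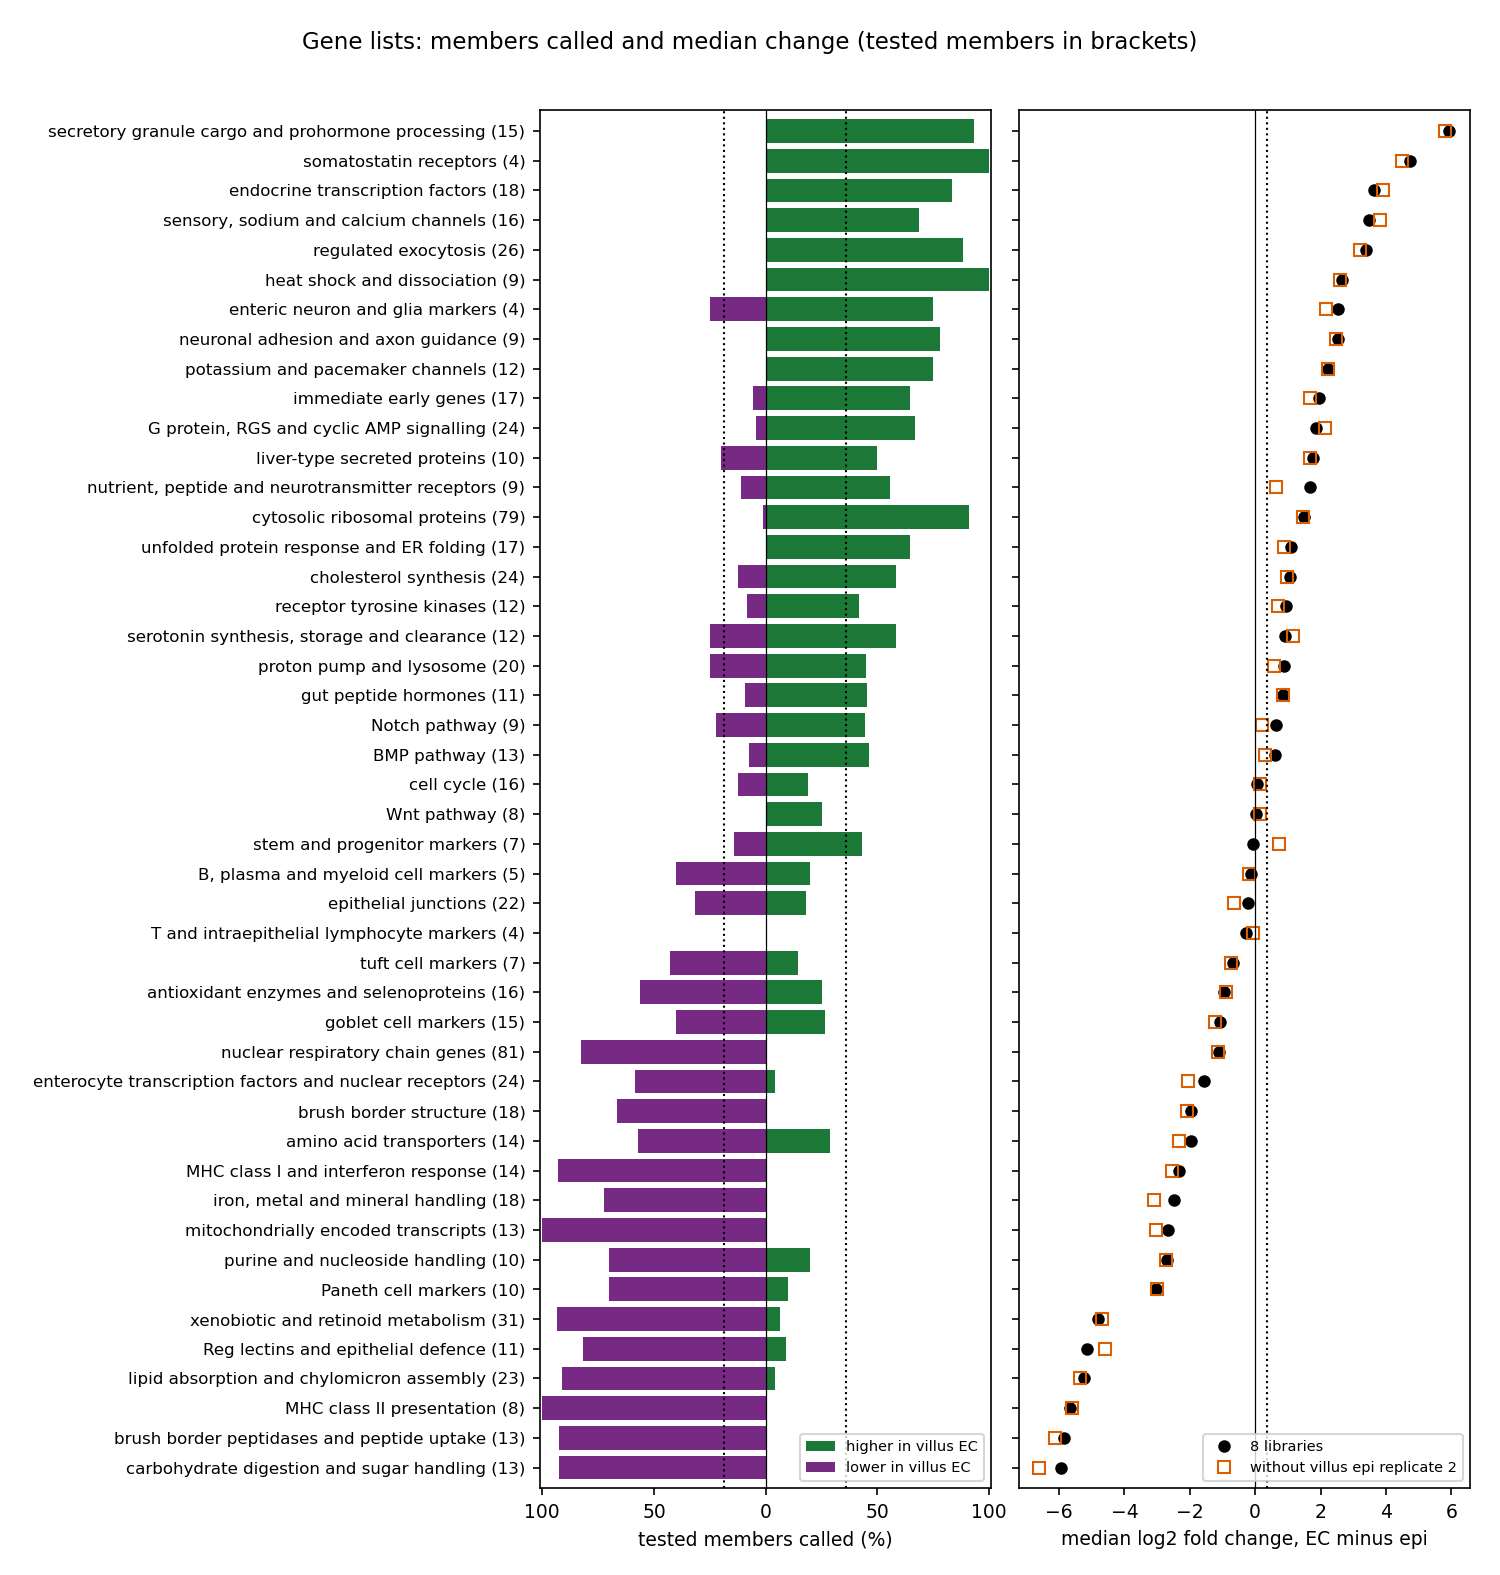
Gene lists with at least 4 tested members (number in brackets), ordered by the median log2 fold change of villus EC minus villus epi. Left, the percentage of members called higher (green) or lower (purple), with dotted lines at 35.8% and 18.5%, the shares over all tested genes. Right, the median over 8 libraries (black) and without villus epi replicate 2 (orange squares), with a dotted line at 0.38, the median of all genes. Granule genes are at the top with 5.94 and carbohydrate genes at the bottom with -5.95.

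The translation and respiration machinery took different shares of the libraries. Of 79 tested ribosomal protein genes 72 were higher and 1 lower (median 1.5), and together they held 1.64% ± 0.0706 of the total in villus EC and 0.456% ± 0.0457 in villus epi (SD, n = 4 each, exact two-sided permutation p = 0.0286, adjusted over 5 gene classes 0.0476). The 13 mitochondrially encoded genes were all lower (median -2.68) and held 2.34% ± 0.121 in villus EC and 10.8% ± 4.03 in villus epi (same p and adjusted p in the exact test). Nuclear respiratory chain genes, 67 of 81 lower and 0 higher (median -1.12), held 3.37% ± 0.174 in villus EC and 5.01% ± 0.782 in villus epi (with that same p), and 0.0286 is the smallest p that 4 against 4 libraries allow. By library the mitochondrial share was 2.23% to 2.48% in villus EC and 14.9%, 5.26%, 10.9% and 12% in villus epi, and without each library's 10 most abundant genes the difference was -1.93 percentage points in place of -8.42. That step also takes out the mitochondrial genes that are among those 10. By group mean, mt-Co3, mt-Atp6, mt-Co1 and mt-Cytb were among the 10 most abundant in villus epi, and of these only mt-Co3 in villus EC. In mitochondrial share, villus epi libraries differed more among themselves than the villus EC libraries did.

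Markers of cells other than epithelium were mostly low in both groups. T and intraepithelial lymphocyte markers summed to 7.08 to 10.7 in villus EC and to 6.90 to 36.8 in villus epi, 0 of 4 tested were called, and none of the markers was at 0 in all libraries of a group. Stromal and endothelial markers summed to 24.2 to 42.8 in villus EC and 8.59 to 165 in villus epi, 1 of 3 tested (Vim) was higher, and the top value was that of villus epi replicate 2, where Dcn, a fibroblast proteoglycan, was at 130 against 0.197 to 1.46 in the other villus epi libraries. Of 5 tested B, plasma and myeloid markers 1 was higher and 2 lower, beside 35.8% and 18.5% of all genes tested. The markers of this list summed to 27.7 to 47.3 in villus EC and 35.9 to 72.9 in villus epi. C1qa, a complement gene, was the one that rose, at 19.3 ± 1.09 in villus EC and 0.164 ± 0.0889 in villus epi (SD, n = 4 each, 4.13, adjusted p = 5.48e-07). Of 4 tested enteric neuron and glia markers 3 were higher and 1 lower (sums of 80.2 to 99.1 in villus EC and 3.59 to 9.34 in villus epi), and glial Gfap stayed under 1 in every library. Of 3 erythroid genes 0 were called. The part of these cells in other results was not tested.

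Within villus EC, the genes with the largest fall differed by library. The 15 genes stood at 0.0188% to 3.77% of their median villus epi level in the villus EC libraries. Their median was 0.152% in replicate 1, 0.895% in replicate 2, 0.659% in replicate 3 and 0.143% in replicate 4. In 14 of the 15, both replicates 2 and 3 lay above both replicates 1 and 4, the exception being Mbl2. Several whole lists had the same order. Brush border peptidases summed to 259, 335, 325 and 231 in villus EC replicates 1 to 4, and MHC class II genes to 269, 446, 414 and 249. Other lists did not follow it: brush border structure genes summed to 3738 in replicate 1 and 3195 in replicate 2, and goblet markers to 13383 in replicate 4 and 12962 in replicate 2. Clca1, a secreted goblet protein, spread most, at 2.04, 60.1, 12.1 and 1.45 in villus EC and at 2424, 1009, 1688 and 1504 in villus epi. Fold changes of these genes therefore differ by library, while the granule gene Chgb kept between 20976 and 24648 in the 4 villus EC libraries.

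Villus epi replicate 2 differed from its group in both directions. In FPKM + 1 it lay at least 4-fold above each of the other 3 villus epi libraries in 830 genes and at least 4-fold below in 1008. Set against the other 3 libraries of its own group, any other villus library did so in 0 to 8 and 2 to 11 genes. For villus epi replicates 1, 3 and 4 those 3 include replicate 2, which widens the range they had to pass. Actb, beta-actin, was at 338, 405, 438 and 413 in villus EC, and in villus epi at 53214 in replicate 2 and at 1426, 1993 and 1917 in the others. Kdelr2, which returns ER proteins from the Golgi, was at 6972 against 106, 133 and 129 in its group, and Ccdc85c at 332 against 1.58, 2.25 and 2.01. Mavs, an adaptor of antiviral signalling, was at 1.51 against 88.3, 94.4 and 92.3, and Gpd1, a glycerol phosphate dehydrogenase, at 16.6 against 591, 639 and 592. Gpd1 was not called with this library (-1.19, adjusted p = 0.386) and was lower in villus EC without it (-2.47, adjusted p = 2.5e-08). Apob, the chylomicron scaffold, behaved likewise: it was at 162 to 180 in villus EC, and in villus epi at 53.7 in replicate 2 and 1524, 1276 and 1175 in the others (-1.79, adjusted p = 0.154, and -2.94, adjusted p = 1.4e-08 without it).

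**Figure D4:**
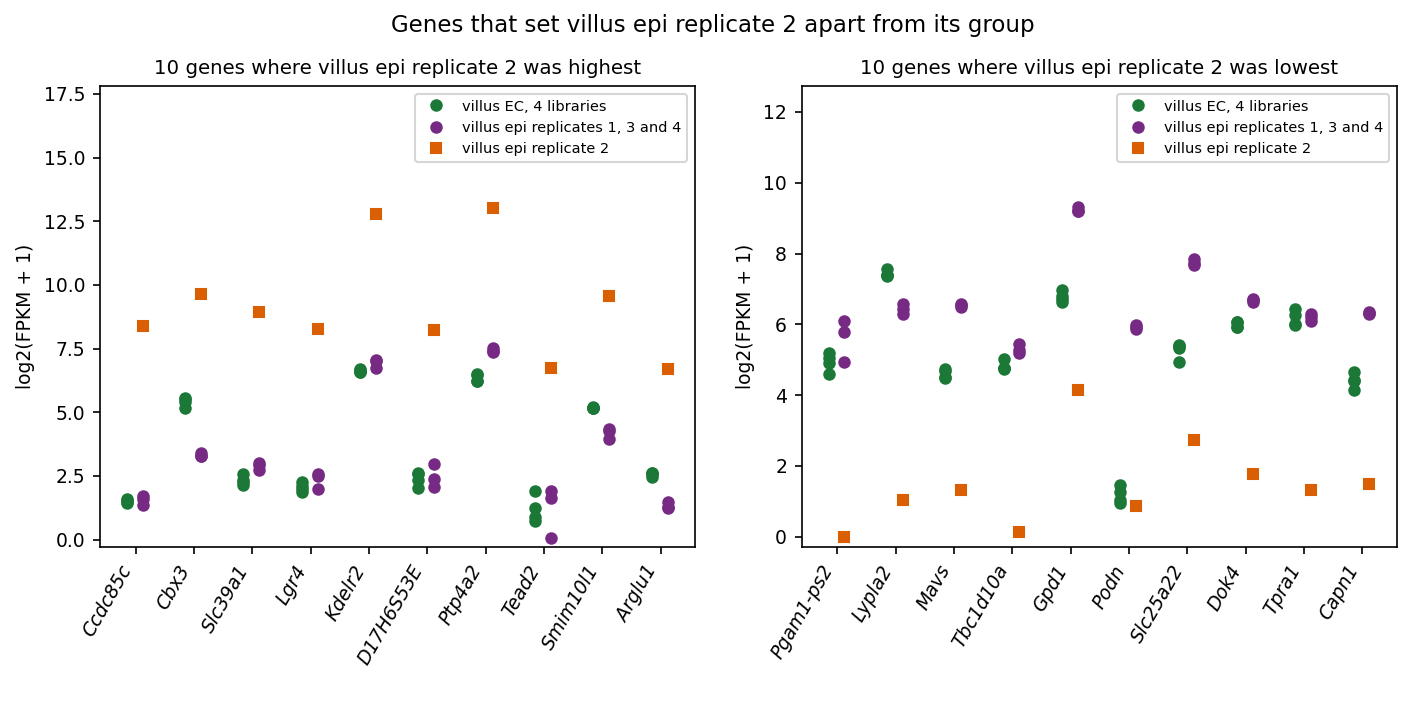
The 10 genes in which villus epi replicate 2 lay highest above (left) and the 10 in which it lay lowest below (right) the mean of the other 3 villus epi libraries, as log2(FPKM + 1), with villus EC in green, villus epi replicates 1, 3 and 4 in purple and replicate 2 as orange squares. In Kdelr2 replicate 2 was at 6972 against 106 to 133 in its group, and in Mavs at 1.51 against 88.3 to 94.4.

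Many differences between EC and epi depended on the site. In a test of the difference itself over all 16 libraries, the log2 fold change of EC against epi was higher in the villus for 3792 of 14089 genes (26.9%) and lower for 2258 (16%). Agr2 averaged 5039 in villus EC and 565 in villus epi, but 814 in crypt EC and 6480 in crypt epi, so its log2 fold changes were 3.17 in the villus and -3.19 in the crypt (difference 6.37 ± 0.49 (SE), adjusted p = 1.16e-07). Clps followed the same pattern at 2.22 and -3.96 (difference 6.18, adjusted p = 1.99e-09), as did Ern2 at 2.56 and -3.13, Habp2 at 2.98 and -3.77 and Pyy, the hormone of L cells, at 3.21 and -2.72. Btnl1, a butyrophilin-like surface protein that shapes intraepithelial lymphocytes, averaged 1.65 in villus EC and 279 in villus epi, and 98.7 in crypt EC and 76.0 in crypt epi (log2 fold changes -6.57 and 0.37, difference -6.94 ± 0.71 (SE), adjusted p = 1.85e-06). Igfbp2, an IGF-binding protein, was under 1 in both villus groups and at 252 in crypt EC and 0.0664 in crypt epi (difference -7.63, adjusted p = 3.56e-11).

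**Figure D5:**
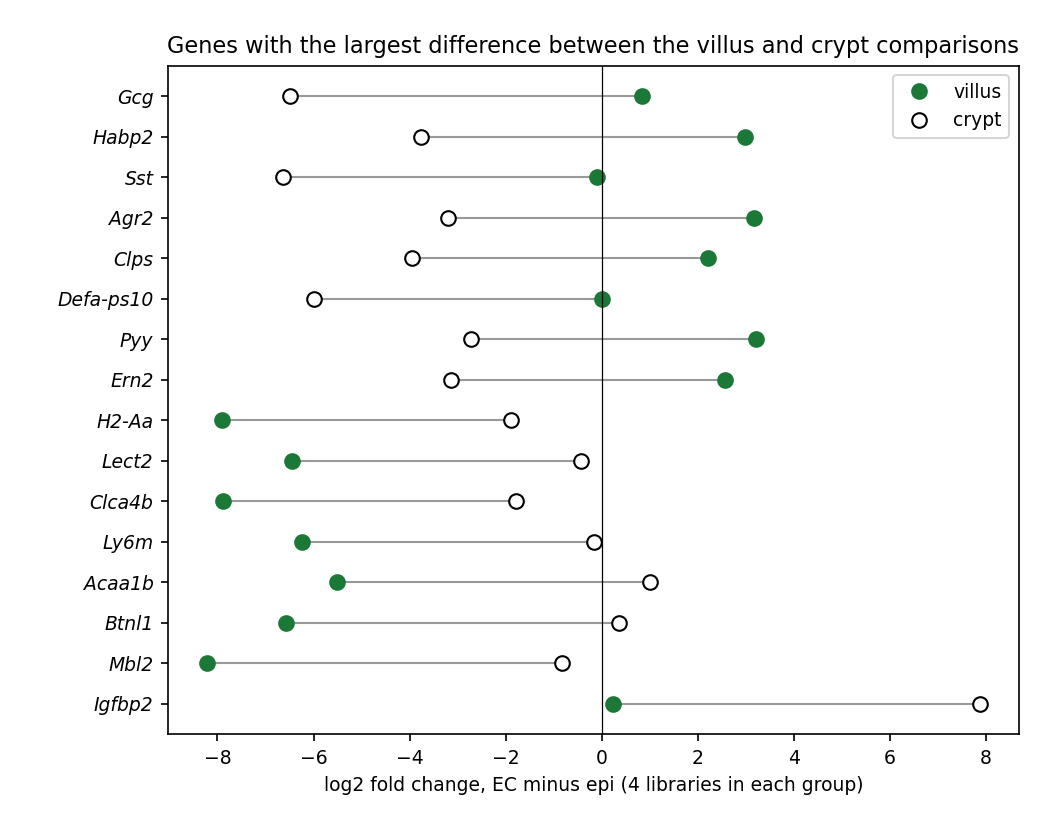
Log2 fold change of EC minus epi in the villus (filled) and in the crypt (open) for the 16 genes with the largest difference between both, 4 libraries in each group. Agr2, Clps, Ern2, Habp2 and Pyy lie above 0 in the villus and below 0 in the crypt, and Mbl2 lies at -8.23 in the villus and -0.82 in the crypt.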

How the data were processed

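Full-length cDNA libraries were made from sorted cells, per the labels' protocols, and the authors deposited 1 table of FPKM values per gene, in which transcript length is divided out. Per the submitters' processing notes, bcl2fastq 2.20, kallisto, sleuth and mm10 were used. Not given in the sources used here are the annotation release, the use of strand and any scaling between libraries, and read depth is unknown. Values were used as deposited. Genes with a value of 1 or more in at least 4 of the 8 villus libraries (3 where a library was left out) were tested on log2(FPKM + 1) with limma 3.58.1 in R 4.3.3 (moderated test, trended prior, Benjamini-Hochberg adjustment over all genes tested, threshold 0.05), and the difference between villus and crypt in 1 model of 16 libraries. Fold changes on this scale understate changes of low genes. Shares of the total were compared with exact permutation tests (SciPy 1.17.1, Python 3.11.15). The code was checked on simulated data. Promoters are those of the RefSeq table (GRCm38.p6), 300 bases per gene, and 12882 tested symbols were matched to it, 9637 of them with a promoter. The genes named are the 15 with the largest change each way, the 10 most abundant per group, members of gene lists, and the 8 with the largest site difference each way, and a part of these was chosen for the text after the values were seen. Members and lists were chosen with earlier results of these data known. Alternatives were other pseudocounts, filters, scalings, array weights, a replicate block, 1 fit of 16 libraries and leaving out each library.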

Additional observations from a re-analysis of the deposited data

Results flagged for a closer look

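The genes named and the shares of 5 gene classes gave 254 groups of 4 libraries to check. In 33 of them, all for genes, 1 library lay far from the other 3 (a gap past Dixon's 95% critical value for 4 samples). Of the 33, 20 were villus epi replicate 2. Chance flags about 1 in 20 groups, but these genes were chosen after their values were seen, several because that library stands apart in them, so the count is no test. That library was high for Actb at 53214, Kdelr2 at 6972, Alpi at 7739, Gnb1 at 1088, Ccdc85c at 332, Dcn at 130 and Slc18a2 at 21.1. It was low for Reg3g at 1740, Creb3l3 at 514, Mttp at 390, Slc7a9 at 333, Fos at 278, Cldn15 at 194, Maoa at 152, Btnl1 at 57.1, Slc28a1 at 20.9, Hnf4a at 19.2, Gpd1 at 16.6, Gch1 at 3.93 and Mavs at 1.51. Villus epi replicate 1 stood apart for Guca2b at 11372, Agr2 at 749, Slc28a2 at 114, Nt5e at 53.3, Slc1a5 at 11.1 and Gast at 1.09, and villus epi replicate 3 for Pts at 43.5. In villus EC, replicate 4 stood apart for Trpa1 at 193, Ptprn2 at 36.5, Slc18a2 at 9.80 and Piezo2 at 0.474, replicate 1 for Lypd8 at 609 and replicate 3 for Reg3g at 78.5.

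The EC minus epi log2 fold change differed between villus and crypt by a limma test of the difference itself in 16 genes chosen for their size. It was higher in the villus for Gcg by 7.34 (adjusted p = 0.00207), Habp2 by 6.75, Sst by 6.55 (adjusted p = 0.0122), Agr2 by 6.37, Clps by 6.18, Defa-ps10 by 5.99, Pyy by 5.93 and Ern2 by 5.69. In the villus itself Gcg (0.85) and Sst (-0.09) were not called, and Defa-ps10 was at 0 in both groups. Crypt epi averaged 249, 176 and 723 for Gcg, Sst and Defa-ps10, and crypt EC 8.90, 1.40 and 12.9. The difference was -7.63 for Igfbp2, -7.40 for Mbl2, -6.94 for Btnl1, -6.51 for Acaa1b, -6.09 for Ly6m, -6.08 for Clca4b, -6.02 for Lect2 and -6.01 for H2-Aa. Where no adjusted p is given here it was 0.000149 (H2-Aa) or smaller.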

How the results depend on the processing

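No named gene that was called changed direction under the alternatives run, while Sis, not called, went to -0.10 without villus epi replicate 2. With equal totals 1536 genes were lower, 5744 higher by 2-fold or more and 1238 lower by 2-fold or more. With array weights 3622 genes were lower, and with a pseudocount of 5, 2329 were higher by 2-fold or more. Leaving out 1 library at a time gave 4047 to 6433 genes higher and 2144 to 3622 lower, 3463 to 4074 and 1811 to 2226 by 2-fold or more, and for the site difference 3493 to 5259 higher and 2098 to 3486 lower, the highest lower counts (3622 and 3486) being those without villus epi replicate 2. Left-out libraries gave differences in share of -10.2 to -7.05 points for mitochondrial, 1.16 to 1.22 for ribosomal protein and -1.98 to -1.35 for nuclear respiratory genes, where 3 against 4 libraries allow no exact p under 0.0571. Villus EC and villus epi libraries of the same replicate number had correlations of deviations between -0.10 and 0.03, all under the 0.1 set for pairing. Library numbers in the labels are 3, 5, 6 and 7 in villus EC and 1, 2, 7 and 8 in villus epi. Replicate numbers do not follow them, so these correlations cannot show whether libraries were paired. Villus EC replicate 1 and villus epi replicate 2 had the highest value of any pair, 0.105. Villus EC replicate 4 and villus epi replicate 3, which share library number 7 in the labels, had 0.068. The numbers were not taken to pair the libraries, and with a replicate block 4243 genes were higher and 2212 lower. Of the 118 named genes with a test, Hnf4a (adjusted p = 0.0557) and Fos lost their call with median-ratio scaling, and 8 gained one without villus epi replicate 2. With equal totals Actb (adjusted p = 0.053), Adk and Gnb1 lost theirs and Scg2 gained one. Actb also lost its call when any 1 villus EC library was left out. The median changed sign in 7 of 48 lists under some alternative. The cause was not tested. Low FPKM values rest on few reads, and without counts no interval can be given.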
